A study of Homo sapiens with 2 samples.

Results

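The genes described here are the snoRNA host genes and the long noncoding RNAs counted with them as markers of growth. They were taken by symbol: every gene of the expression table named SNHG followed by a number, plus GAS5, ZFAS1 and EPB41L4A-AS1. The rule gave 31 of the 36601 genes in the table. Of these, 27 had enough counts to be tested and 4 did not. The cells were PC9, an established human lung adenocarcinoma line driven by mutant EGFR, grown as 1 culture. They carried lentiviral single guide RNAs (sgRNAs), delivered with polybrene at 8 ug/ml for an infection rate of about 40% and puromycin at 1 ug/ml served for selection. The submitters' labels describe both knockout and a dCas9 knockdown, name both day 7 and day 8, and describe several sgRNAs per vector, so the kind of perturbation, the day of harvest and the number of sgRNAs per cell cannot be told apart here. Every group shares the line, the culture, the virus and the selection, and the groups differ in the gene named by the sgRNA: 4 non-targeting control sgRNAs (700 cells), 6 of ATF4 (859 cells), 4 of PGAM1 (333 cells), 6 of CTNNB1 (1552 cells), 6 of JUN (836 cells), 6 of CTCF (1182 cells) and 2 of MYC with at least 20 cells each (68 cells).

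Droplet-based 3' sequencing gave 136071789 gene molecules, counted as unique molecular identifiers (UMIs), in 10847 barcodes, and 10142 cells passed the filter with a median of 12239.5 UMIs. The line's epithelial markers were present, with KRT18 at 4345 counts per 1000000 UMIs (CPM), KRT19 at 2154 and EPCAM at 270.4 over the pooled assigned cells. The 10 markers of blood, fibroblast, endothelial and liver cells ranged from 0 to 17.1 CPM, the highest being CD68, and COL1A2, DCN and ALB were at 0. The cells sharing an sgRNA were added up into 1 profile, and these 34 sums of 267726 to 6430143 UMIs were the units compared. All came from 1 culture, so the p-values below reflect how sgRNAs differ within it, a spread that may be technical. The transcript of the targeted gene was lower with ATF4 sgRNAs, at 260.5 ± 47.0 CPM (SD, n = 6) against 361.5 ± 15.5 (SD, n = 4) with control sgRNAs, a log2 fold change of -0.51 ± 0.070 (SE; edgeR's quasi-likelihood test, adjusted p = 6.6e-07).

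Host genes of small nucleolar RNAs (snoRNAs) are spliced transcripts whose introns, not exons, hold the working product. The snoRNAs cut from the introns guide chemical modification of ribosomal RNA, box C/D snoRNAs directing ribose methylation and box H/ACA snoRNAs directing pseudouridylation. The spliced exons are often exported, loaded onto ribosomes and removed by nonsense-mediated decay, so the level of a host RNA reflects both its making and its decay. Many host genes start transcription at a cytosine followed by a run of pyrimidines, the terminal oligopyrimidine (TOP) start they share with ribosomal protein genes, whose translation follows the growth state of the cell. GAS5, for growth arrest specific, is the best-known example, since its RNA builds up when translation or growth slows. ATF4 is a transcription factor made when the integrated stress response is switched on, and it drives amino acid synthesis and uptake.

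Of the 27 tested members, 14 had a box C/D snoRNA gene within their RefSeq span, 12 had a box H/ACA snoRNA gene, 3 had a small Cajal body RNA gene and 0 had none of these. GAS5 held 10 box C/D and 1 box H/ACA snoRNA genes, SNHG1 held 8 box C/D genes, and ZFAS1 and SNHG29 held 3 each. SNHG5 held 2 box C/D genes (SNORD50A and SNORD50B) and SNHG8 held 1 box H/ACA gene (SNORA24). The snoRNAs themselves were not measured here, because 3' sequencing of polyadenylated RNA reads the spliced host exons.

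Start windows of 100 bases (70 before the RefSeq start and 30 from it, build GRCh38.p14, 5′ to 3′ on the gene's own strand, from RefSeq) are shown for the 4 members whose level changed with ATF4 sgRNAs (ZFAS1, SNHG5, SNHG8 and GAS5) and for 4 that did not pass that test: SNHG32 and SNHG12, which have a long pyrimidine run, SNHG1, and SNHG29, the most abundant member. The capitals mark the unbroken run of C and T that lies across the annotated start, where there is one. Only the start of the gene's RefSeq promoter entry was read, and other annotated starts were not. For ZFAS1 and SNHG12 this start lies inside the gene's RefSeq span, whose 5′ ends are at 49278178 and 28582983.
ZFAS1 (chr20:49278572-49278671, plus strand): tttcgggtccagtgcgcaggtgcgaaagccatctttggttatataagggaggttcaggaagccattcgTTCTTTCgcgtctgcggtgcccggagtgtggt
SNHG5 (chr6:85678704-85678803, minus strand): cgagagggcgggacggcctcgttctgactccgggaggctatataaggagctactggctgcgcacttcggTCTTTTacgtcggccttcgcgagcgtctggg
SNHG8 (chr4:118278692-118278791, plus strand): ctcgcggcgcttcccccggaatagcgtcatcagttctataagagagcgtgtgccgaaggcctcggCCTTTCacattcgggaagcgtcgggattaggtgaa
GAS5 (chr1:173869016-173869115, minus strand): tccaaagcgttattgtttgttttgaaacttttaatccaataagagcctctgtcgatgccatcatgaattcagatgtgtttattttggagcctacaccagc
SNHG32 (chr6:31834846-31834945, plus strand): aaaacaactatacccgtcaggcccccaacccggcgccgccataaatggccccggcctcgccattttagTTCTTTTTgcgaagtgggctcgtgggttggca
SNHG12 (chr1:28581844-28581943, minus strand): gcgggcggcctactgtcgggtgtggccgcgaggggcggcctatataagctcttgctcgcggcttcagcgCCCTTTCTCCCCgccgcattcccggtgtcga
SNHG1 (chr11:62855856-62855955, minus strand): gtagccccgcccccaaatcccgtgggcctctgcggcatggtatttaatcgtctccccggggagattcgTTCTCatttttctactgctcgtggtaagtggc
SNHG29 (chr17:16438917-16439016, plus strand): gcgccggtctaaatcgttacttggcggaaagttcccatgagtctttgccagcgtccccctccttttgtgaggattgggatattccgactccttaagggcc

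A C at the annotated start followed by at least 4 further pyrimidines, used here as a plain reading of a TOP start, was present in 7 of the 27 members with a RefSeq promoter (25.9%) and in 1429 of 35116 promoters in the same table (4.07%). The 27 members with a promoter are not the 27 tested ones: they are 23 tested members and the 4 untested ones. The 35116 promoters were not limited to genes tested here, and this holds for the other shares of all promoters below. The tested members SNHG6, SNHG9, SNHG15 and SNHG25 had no promoter entry and were not searched. The 7 with such a start were ZFAS1, SNHG5, SNHG32, SNHG4, SNHG12, SNHG18 and SNHG19. Of the 4 members called with ATF4 sgRNAs, ZFAS1 and SNHG5 had such a start. In SNHG8 the run CCTTTC lay across the start, with the annotated first base being the last C of the run. The RefSeq starts of GAS5 and SNHG29 had no pyrimidine run at this base. Other starts of these genes were not read, so this does not show that they lack a TOP start. The 7 of 27 likewise counts the starts of the promoter entries only. A bare C at the start was found in 11 of the 27 members with a promoter (40.7%) against 14.7% of all promoters. For the same 27 members, windows of 300 bases (250 before and 50 after the start) were searched on both strands. None held the ATF4-type element TGATGNAA (3.62% of all promoters), the cyclic AMP element TGACGTCA (1.85%) or the AP-1 element TGANTCA (7.71%). The E-box CACGTG was in 2 of the 27 (7.41%), SNHG7 and SNHG30, against 7.26% of all promoters.

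All members together made up 0.509% of the UMIs of the 34 sgRNA sums, and 71.7% of that came from 3 genes, SNHG29, ZFAS1 and GAS5. SNHG29 averaged 1571 CPM over the 34 sgRNAs, ZFAS1 1369 and GAS5 732. A 3' UMI count scores each RNA molecule once at its end, so these levels were not divided by transcript length, but capture can differ between genes. Below them came SNHG8 at 233 CPM, SNHG7 at 227, SNHG6 at 182, SNHG1 at 129.5, SNHG16 at 111, SNHG32 at 99.2 and EPB41L4A-AS1 at 89.1. SNHG8 and SNHG7 did not differ beyond their spread, with ranges over sgRNAs of 149 to 329 and 149 to 289 CPM. SNHG3 and SNHG5 averaged 65.1 and 62.3 CPM, and the other 15 tested members lay between 1.73 (SNHG31) and 31.5 CPM (SNHG15). The members left untested were SNHG27 with 82 counts in all, SNHG22 with 10, SNHG14 with 1 and SNHG28 with 0.

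**Figure D1:**
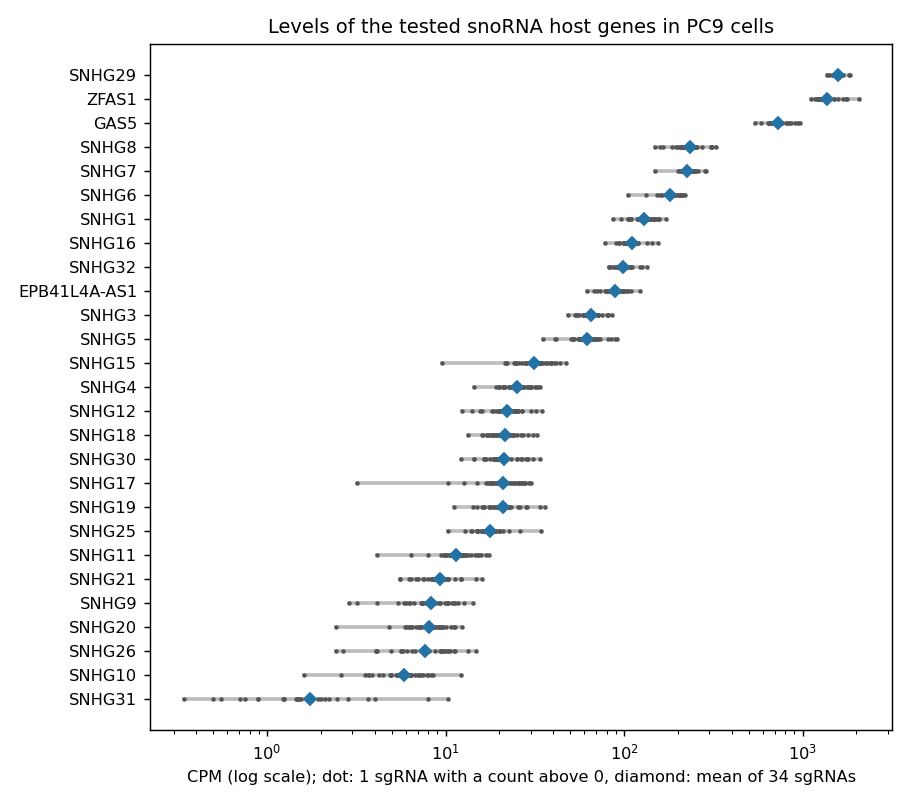
Level in CPM (log scale) of the 27 tested members, one row per gene, with a dot for each sgRNA with a count above 0 and a diamond for the mean of 34 sgRNAs. SNHG29, ZFAS1 and GAS5 stand at 1571, 1369 and 732 CPM, and most of the other members lie below 100 CPM.

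The members varied unequally from sgRNA to sgRNA. SNHG29 had a coefficient of variation of 6.04% over the 34 sgRNAs, against 2.31% from counting alone. ZFAS1 varied by 14.2% (counting alone 2.48%), GAS5 by 12.6% (3.39%) and SNHG8 by 17.8% (6.01%). SNHG5 varied by 20.1% against 11.6% from counting, whereas SNHG4 at 17.9% (18.2%) and SNHG18 at 19.8% (19.8%) varied no more than their counts allow. In a test of any difference among the 7 groups, 6 of the 27 members passed an adjusted p of 0.05 (edgeR), where 5.59% of the 11570 genes tested passed. These were ZFAS1 (adjusted p = 5.1e-09), SNHG8 (5.7e-06), GAS5 (2.1e-05), SNHG30 (0.00034), SNHG5 (0.0013) and SNHG1 (0.010).

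With ATF4 sgRNAs, 4 members were higher than with control sgRNAs: ZFAS1, GAS5, SNHG8 and SNHG5. They were 14.8% of the 27 tested members, whereas 0.605% of the 11570 genes were called higher, 1.15% were called lower and 1.75% were called in either direction. No member was called lower, and at an unadjusted p under 0.05 edgeR gave 9 higher and 0 lower, 33.3% of the members beside 12.4% of all genes in either direction. DESeq2 called the same number, 4. SNHG5 had been singled out with this result known, so its values are a description.

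ZFAS1 (ENSG00000177410) is an antisense RNA beside ZNFX1 that hosts box C/D snoRNAs. It stood at 1494 to 2063 CPM over the 6 ATF4 sgRNAs, with a median of 1710, and at 1354, 1301, 1274 and 1168 CPM with the 4 control sgRNAs. Every ATF4 sgRNA lay above every control. The means were 1710 ± 209 CPM (SD, n = 6) and 1274 ± 77.9 (SD, n = 4), a log2 fold change of 0.38 ± 0.055 (SE; edgeR, adjusted p = 1.8e-06). GAS5 (ENSG00000234741) ranged from 746 to 966 CPM with ATF4 sgRNAs, with a median of 886, and stood at 715, 666, 754 and 648 CPM with control sgRNAs. Here 5 of the 6 ATF4 sgRNAs lay above all controls, and ATF4 sgRNA 4 lay just below the highest control. GAS5 thus rose by a log2 fold change of 0.28 ± 0.058 (SE; edgeR's adjusted p = 0.0014).

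SNHG8 (ENSG00000269893), the host of SNORA24, ranged from 258 to 329 CPM with ATF4 sgRNAs, with a median of 306.5, and stood at 249, 209, 252 and 165 CPM with control sgRNAs. The groups did not overlap, but the lowest ATF4 sgRNA and the highest control were close together. On the log2 scale SNHG8 was higher by 0.35 ± 0.074 (SE; edgeR's adjusted p = 0.0019). SNHG5 (ENSG00000203875) ranged from 66.8 to 91.7 CPM with ATF4 sgRNAs, with a median of 83.2, and stood at 61.0, 56.0, 64.1 and 41.4 CPM with control sgRNAs. The groups did not overlap. On the log2 scale SNHG5 was higher by 0.45 ± 0.099 (SE; edgeR's adjusted p = 0.0042), the largest of the 4 and the one resting on the fewest counts, 919 with ATF4 sgRNAs and 522 with controls.

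**Figure D2:**
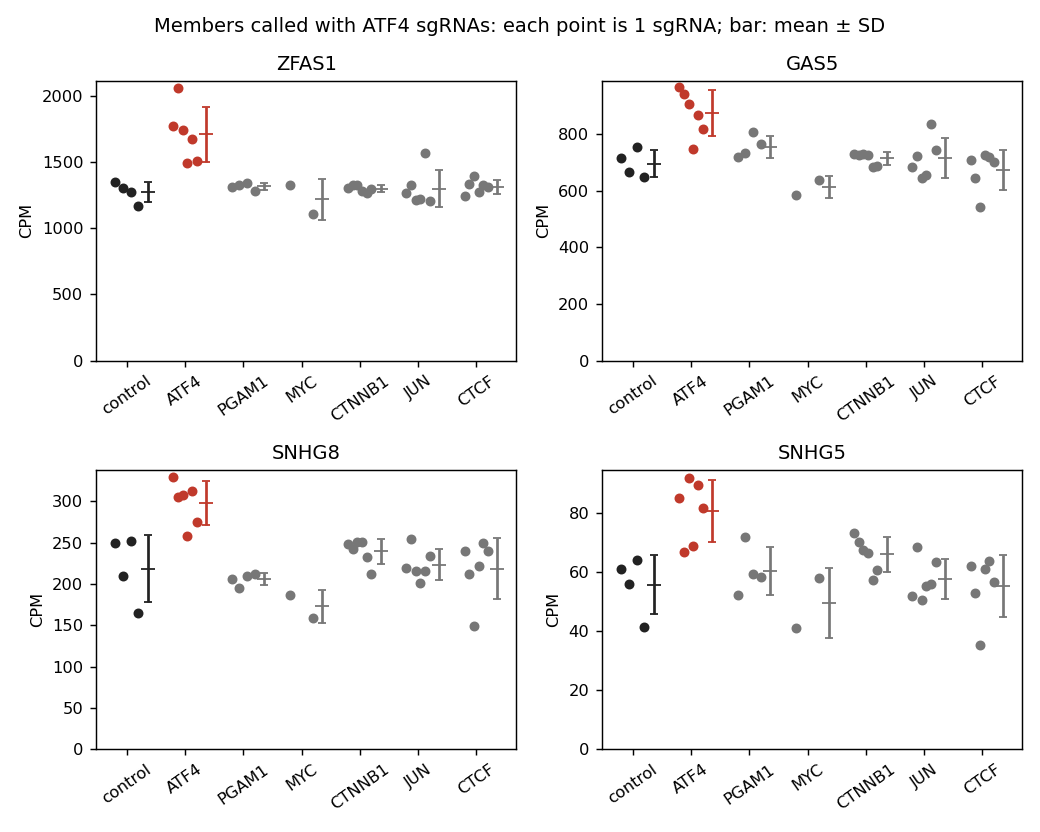
CPM of ZFAS1, GAS5, SNHG8 and SNHG5 by sgRNA target; each point is 1 sgRNA and the bar beside it is the mean ± SD. The ATF4 sgRNAs (red) sit above the control sgRNAs (black) in every panel except for ATF4 sgRNA 4 in GAS5, and 1 JUN sgRNA reaches 1570 CPM in ZFAS1.

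The 6 ATF4 sgRNAs were not alike. ATF4 sgRNA 4 had the highest ATF4 level of the 6, at 332 CPM against 186 to 274 for the other ATF4 sgRNAs, and the control range was 343 to 376. The same sgRNA was the lowest of the 6 in ZFAS1, GAS5 and SNHG8, and the next to lowest in SNHG5 at 68.8 CPM. The order did not carry on below it: ATF4 sgRNA 6, with the least ATF4 RNA at 186 CPM, was the next to lowest in ZFAS1 (1510 CPM), GAS5 (819 CPM) and SNHG8 (274 CPM). Without ATF4 sgRNA 4, the log2 fold changes were 0.41 for ZFAS1, 0.32 for GAS5, 0.40 for SNHG8 and 0.51 for SNHG5. Among the controls, control sgRNA 4, with the fewest cells (77), was the lowest in all 4 genes. Without it the log2 fold changes were 0.34, 0.25, 0.27 and 0.38 in the same order, and all 4 genes were still called.

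The remaining members are given by their intervals, since missing the threshold does not show that they did not change. SNHG30 was 28.6 ± 3.0 CPM (SD, n = 6) with ATF4 sgRNAs and 21.2 ± 2.79 (SD, n = 4) with controls, nearly touching but without overlap, and its log2 difference of 0.44 did not pass (edgeR, adjusted p = 0.059). SNHG9, at 10.2 against 5.78 CPM, had a log2 difference of 0.73 (95% interval 0.29 to 1.17) with an adjusted p of 0.070. Its controls held 54 counts in all. The SNHG9 mean was also above controls with PGAM1 (9.96 CPM), CTNNB1 (8.84), JUN (8.23), MYC (7.67) and CTCF (6.59) sgRNAs. SNHG17 had 0.41 (adjusted p = 0.17), and SNHG1, with its 8 box C/D snoRNA genes, had 0.16 (0.0083 to 0.31; adjusted p = 0.36). SNHG7 was the fifth member without overlap, at 226 to 249 CPM with ATF4 sgRNAs and 206 to 224 with controls, and its log2 difference was 0.12 (-0.017 to 0.25). Such a lack of overlap, all ATF4 sgRNAs above all controls, was seen in 5 of the 27 members (18.5%) and in 2.38% of all genes.

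Some abundant members gave narrow intervals around 0. SNHG29 stood at 1513 to 1675 CPM with ATF4 sgRNAs and at 1571, 1553, 1642 and 1568 CPM with controls, so the groups overlapped. Its log2 difference was -0.03, with a 95% interval of -0.12 to 0.067 that excludes the value seen in ZFAS1. SNHG6 had 0.019 (-0.12 to 0.15), SNHG16 -0.020 (-0.19 to 0.15) and EPB41L4A-AS1 -0.031 (-0.19 to 0.13). Over the 27 members, 21 had a log2 difference above 0 and the median was 0.11, beside 50.7% of all genes and a median of 0.0031. The summed level of the members was 5783 ± 384 CPM (SD, n = 6) with ATF4 sgRNAs and 4947 ± 204 (SD, n = 4) with controls, with ranges of 5300 to 6385 and 4684 to 5127.

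**Figure D3:**
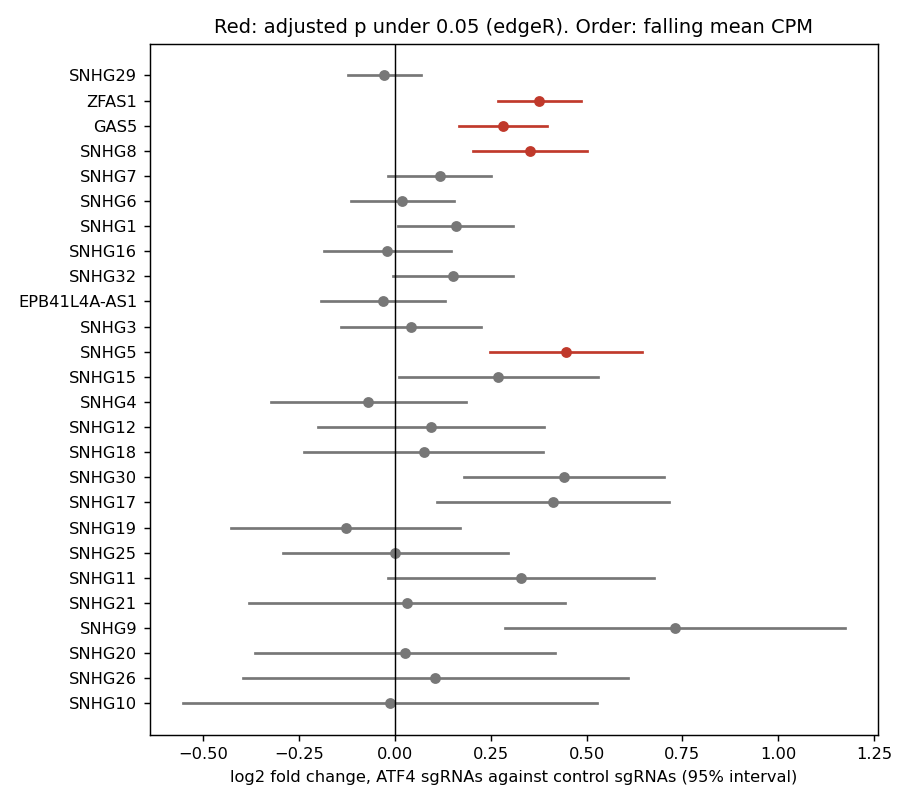
Log2 fold change with ATF4 sgRNAs against control sgRNAs for the 26 members with a mean of at least 5 CPM, in order of falling level; lines are 95% intervals and red marks an adjusted p under 0.05. ZFAS1, GAS5, SNHG8 and SNHG5 lie between 0.28 and 0.45, while SNHG29, the most abundant member, lies at -0.03.

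Cells with ATF4 sgRNAs had a median of 12564 UMIs and 10.7% mitochondrial UMIs, and 52.5% were scored G1. Control cells had 12110.5 UMIs, 11.2% and 56.0% (exact 95% binomial interval 52.2 to 59.7%, counting error only). In G1-scored cells alone, all 4 members were again called with ATF4 sgRNAs, at 0.36 for ZFAS1, 0.27 for GAS5, 0.37 for SNHG8 and 0.49 for SNHG5. In cells with at most 10% mitochondrial UMIs, which leaves fewer cells, ZFAS1 (0.36) and GAS5 (0.29) were called, whereas SNHG8 (0.34, adjusted p = 0.11) and SNHG5 (0.39, adjusted p = 0.28; edgeR) were not.

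Set directly against the sgRNAs of each other target, with no control sgRNA in the comparison, ZFAS1 and SNHG8 were higher with ATF4 sgRNAs in all 5 comparisons. ZFAS1 differed by 0.36 from PGAM1, 0.49 from MYC, 0.36 from CTNNB1, 0.37 from JUN and 0.34 from CTCF on the log2 scale (edgeR, adjusted p between 6.5e-08 and 0.00013). SNHG8 differed by 0.50, 0.79, 0.25, 0.37 and 0.35 in the same order (adjusted p at most 0.016). GAS5 was higher than with MYC (0.48), CTNNB1 (0.25), JUN (0.27) and CTCF (0.31) sgRNAs, and its difference from PGAM1 was 0.18 with an adjusted p of 0.087. SNHG5 was higher than with PGAM1 (0.41), JUN (0.43) and CTCF (0.43) sgRNAs, and was not called against CTNNB1 (0.26, adjusted p = 0.070) or MYC (0.63, adjusted p = 0.29). These comparisons share the ATF4 sgRNAs.

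The counts of members called higher were 3 against PGAM1 (1.47% of all genes were called higher), 3 against MYC (0.363%), 4 against CTNNB1 (0.579%), 4 against JUN (1.4%) and 7 against CTCF (2.71%). SNHG30 was the further member called against CTNNB1, with a log2 difference of 0.65 ± 0.11 (SE; adjusted p = 3.5e-05). Against CTCF, SNHG30 (0.58), SNHG15 (0.51) and SNHG1 (0.29) joined the 4. SNHG30 stood at 12.2 to 19.7 CPM with CTNNB1 sgRNAs and 14.4 to 21.2 with CTCF sgRNAs, below the 25.1 to 33.9 CPM of the ATF4 sgRNAs, while JUN sgRNAs overlapped the ATF4 range at 16.9 to 30.8 CPM.

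Against the same 4 control sgRNAs, no member was called for any of the other 5 targets by edgeR or by DESeq2, which gave no adjusted p for 15 members with PGAM1 and 20 with MYC. At an unadjusted p under 0.05, edgeR gave 3 members for PGAM1 (8.72% of all genes), 6 for MYC (7.83%), 2 for CTNNB1 (4.3%), 0 for JUN (4.63%) and 1 for CTCF (6.23%). Few genes of any kind were called in these comparisons: 0.389% for PGAM1, 0.277% for MYC, 0.00864% for CTNNB1, 0.00864% for JUN and 0.0259% for CTCF. The transcripts of PGAM1 (-1.66) and CTNNB1 (-0.90) were lower with their own sgRNAs on the log2 scale, whereas those of JUN (-0.14), CTCF (-0.18) and MYC (0.62) did not pass the test, so for these 3 the RNA does not show that the target was affected.

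For JUN and CTCF sgRNAs the intervals of the abundant members were narrow. ZFAS1 differed from control by 0.0028 (95% interval -0.11 to 0.11) with JUN sgRNAs and by 0.037 (-0.072 to 0.15) with CTCF sgRNAs. GAS5 differed by 0.011 (-0.11 to 0.13) and -0.029 (-0.14 to 0.086), and both members' intervals lay below the change seen with ATF4 sgRNAs. With CTNNB1 sgRNAs, ZFAS1 differed by 0.021 (-0.087 to 0.13) and SNHG5 by 0.18 (-0.0066 to 0.37). With PGAM1 sgRNAs, PGAM1 being an enzyme of glycolysis, the unadjusted p was under 0.05 for SNHG9 (0.80), SNHG7 (0.16) and EPB41L4A-AS1 (-0.30, adjusted p = 0.28). EPB41L4A-AS1 stood at 68.0, 70.4, 83.8 and 84.8 CPM with the 4 PGAM1 sgRNAs and at 98.7, 88.4, 109 and 81.9 CPM with controls, so the groups overlapped.

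MYC, the transcription factor that drives ribosome production, had the thinnest data, 2 sgRNAs with 23 and 45 cells. MYC RNA was not lower with these sgRNAs, at 114 ± 39.1 CPM (SD, n = 2) against 69.8 ± 4.52 (SD, n = 4) with controls. The values below are therefore not shown to follow a loss of MYC. With the MYC sgRNAs, 20 of the 27 members had a log2 difference below 0 and 7 above it, with a median of -0.20. Over all 11570 genes, 45.5% lay above 0 and the median was -0.044. SNHG29 stood at 1453 and 1366 CPM, below every control sgRNA, with a log2 difference of -0.20 (95% interval -0.35 to -0.047; edgeR, adjusted p = 0.45). SNHG1 stood at 105 and 86.7 CPM, also below every control, with -0.49 (-0.87 to -0.11; adjusted p = 0.46), and GAS5 at 586 and 640 CPM, with -0.20 (-0.40 to 0.010). SNHG11 and SNHG12 were at 0 counts in the smaller of the 2, where the 3 counts that a count of 0 allows come to 11.2 CPM, beside control means of 10.9 and 21.7 CPM. In all, 7 of the 27 members (25.9%) had both MYC sgRNAs below all controls, where 14.8% of all genes did.

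The wider pathway was read from lists of snoRNA partner proteins, decay factors and other host genes. Of 17 tested genes of the snoRNA protein complexes and their assembly, 0 were called by edgeR in the 6 comparisons with control, and their median with ATF4 sgRNAs was 0.061 on the log2 scale. At an unadjusted p under 0.05, 3 of these 17 were higher and 1 lower with ATF4 sgRNAs, where 12.4% of all genes passed in either direction, and DESeq2 called 1 higher with ATF4 sgRNAs and 1 lower with PGAM1 sgRNAs. Of 14 genes of nonsense-mediated decay and the exon junction complex, 1 was called higher with ATF4 sgRNAs: RBM8A, a core protein of the exon junction complex, at 0.20 ± 0.057 (SE; adjusted p = 0.047), and the median was 0.15. Of 24 ribosomal protein genes that host snoRNAs, 0 were called higher and 1 lower with ATF4 sgRNAs (RPL3, -0.14, adjusted p = 0.029), with a median of -0.052. Of 22 other host genes, HSPA8, a constitutive heat shock chaperone (-0.52, adjusted p = 4.4e-09), and EIF4A2, a translation initiation helicase (-0.35, adjusted p = 0.013), were called lower, with a median of -0.023. With MYC sgRNAs, 4 of the 24 ribosomal protein hosts were called lower: RPL4 (-0.36), RPL3 (-0.24), RPS2 (-0.23) and RPL12 (-0.23), where 0.112% of all genes were called lower. At an unadjusted p under 0.05, 14 of the 24 were lower and 0 higher with MYC sgRNAs, beside 7.83% of all genes in either direction. The other lists also leaned lower with MYC sgRNAs at that threshold, with 0 genes higher in each. Lower were 5 of the 17 snoRNA complex genes, 5 of the 22 other host genes and 2 of the 14 decay and exon junction genes. DESeq2 called 4 ribosomal protein hosts and 1 other host gene lower with MYC sgRNAs. With PGAM1 sgRNAs, edgeR called 0 of the ribosomal protein hosts, but 7 of the 24 were higher and 0 lower at an unadjusted p under 0.05 (8.72% of all genes in either direction), and DESeq2 called 5 higher. No gene of these 4 lists was called by edgeR or DESeq2 with CTNNB1, JUN or CTCF sgRNAs; at an unadjusted p under 0.05, each of the lists had 0 to 3 genes in a direction.

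Of 20 tested genes that overlap a member or lie within 5 kb of one, 1 was called with ATF4 sgRNAs. It was SLC3A2, the heavy chain of an amino acid transporter, which lies beside SNHG1 on the opposite strand. SLC3A2 stood at 263 ± 19.96 CPM (SD, n = 6) with ATF4 sgRNAs and 315 ± 18.8 (SD, n = 4) with controls, without overlap, a log2 fold change of -0.30 ± 0.061 (SE; edgeR, adjusted p = 0.0014), while SNHG1 had 0.16 as given above. ZNFX1, the neighbour of ZFAS1, had -0.039 (95% interval -0.32 to 0.24), and ZBTB37, which overlaps GAS5 on the other strand, had -0.099 (-0.53 to 0.33). SNHG3 overlaps RCC1, SNHG4 overlaps MATR3 and SNHG20 overlaps SEC14L1 on the same strand, so strand cannot tell their reads apart and their counts are uncertain. SNHG12 overlaps TRNAU1AP and SNHG7 overlaps DIPK1B on opposite strands. The sources used here do not say whether reads were counted by strand, so the counts of opposite-strand pairs are uncertain too.

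The genes whose log2 CPM over the 34 sgRNAs was most like that of SNHG5, among 7707 genes with a mean of at least 10 CPM, were PA2G4 (Pearson's r = 0.85), SNHG8 (0.84), YDJC (0.83), C1QBP (0.81) and GAS5 (0.80). These values are a description over sgRNAs that share 1 culture and differ in depth, and the SNHG5 contrast of ATF4 with the rest enters them. After each group's mean was taken away, SNHG8 remained correlated over the 34 sgRNAs with GAS5 (r = 0.71) and SNHG5 (0.70), GAS5 with SNHG5 (0.64) and with SNHG32 (0.59), and SNHG32 with ZFAS1 (0.68). These were the highest of the 66 pairs of the 12 members with a mean of at least 50 CPM. The median over the 66 pairs was 0.22, with a range of -0.43 to 0.71. CTCF sgRNA 3 (48 cells) and control sgRNA 4 (77 cells) were each the lowest of their group in GAS5, SNHG8 and SNHG5. Their part in these correlations was not tested.

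Across the cell cycle the comparison is a description, because the phases are ranges of a score within 1 culture and no test was made. Each cell was scored for S and G2/M genes, none of them a member, and 5424 cells were scored G1 (53.5%), 2015 S (19.9%) and 2703 G2/M (26.7%). G1-scored cells were shallower, with a median of 10919 UMIs against 13977 and 14820, and had 11.1% mitochondrial UMIs against 9.92% and 9.94%. The part of depth in the phase differences was not tested as such, but 89.9% of cells kept their phase when each was thinned to 5000 UMIs, and 1929 cells (19.0%) lay near the boundary between phases. The summed level of the members was 5404 CPM in G1, 4942 in S and 4894 in G2/M.

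Of the 21 members with at least 10 CPM, 14 were lower in S than in G1, where 42.8% of all genes at that level were. In G2/M, 13 were lower than in G1, where 35.9% of all genes at that level were. The median log2 ratio was -0.080 for S and -0.062 for G2/M, beside 0.042 and 0.077 over all 7704 genes at that level. By more than 1.2-fold, 6 members were lower in S (10.6% of all genes) and 2 higher (20.2%), and 7 were lower in G2/M (7.19%) and 3 higher (21.9%). The direction was the same in all 7 pools of cells (control, 5 targets and unassigned cells) for 13 members in S and 11 in G2/M. MYC was left out for its few cells. The count over pools was not made for all genes, so no share stands beside it.

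The members with lower levels outside G1 included most of the abundant ones. SNHG18 stood at 27.1 CPM in G1, 15.6 in S and 17.0 in G2/M, log2 ratios of -0.80 and -0.67. SNHG4 (-0.48 and -0.45), SNHG3 (-0.37 and -0.35) and SNHG19 (-0.36 and -0.37) were lower by like amounts in both phases. GAS5 was 800 CPM (exact Poisson 95% interval 793 to 807, counting error only) in G1, 690 (680 to 699) in S and 642 (635 to 650) in G2/M. SNHG8 stood at 268, 238 and 193 CPM in G1, S and G2/M, lowest in G2/M, and EPB41L4A-AS1 stood at 104, 85.1 and 74.5 CPM. SNHG7 was lowest in S, at 240, 192 and 230 CPM. ZFAS1 was 1432, 1255 and 1290 CPM in G1, S and G2/M.

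A smaller set was higher outside G1. SNHG1 stood at 111 CPM in G1, 133 in S and 147 in G2/M, with log2 ratios of 0.25 and 0.40, and was higher in all 7 pools. SNHG6 was highest in S, at 178, 211 and 195 CPM. SNHG30 was also highest in S, at 19.0, 26.4 and 23.2 CPM, a log2 ratio of 0.48 for S, and SNHG11 was 11.05, 14.2 and 14.1 CPM. SNHG5 was level across the phases, at 63.2, 64.15 and 64.2 CPM, as were SNHG16 at 111, 108 and 110 CPM, SNHG12 and SNHG25.

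**Figure D4:**
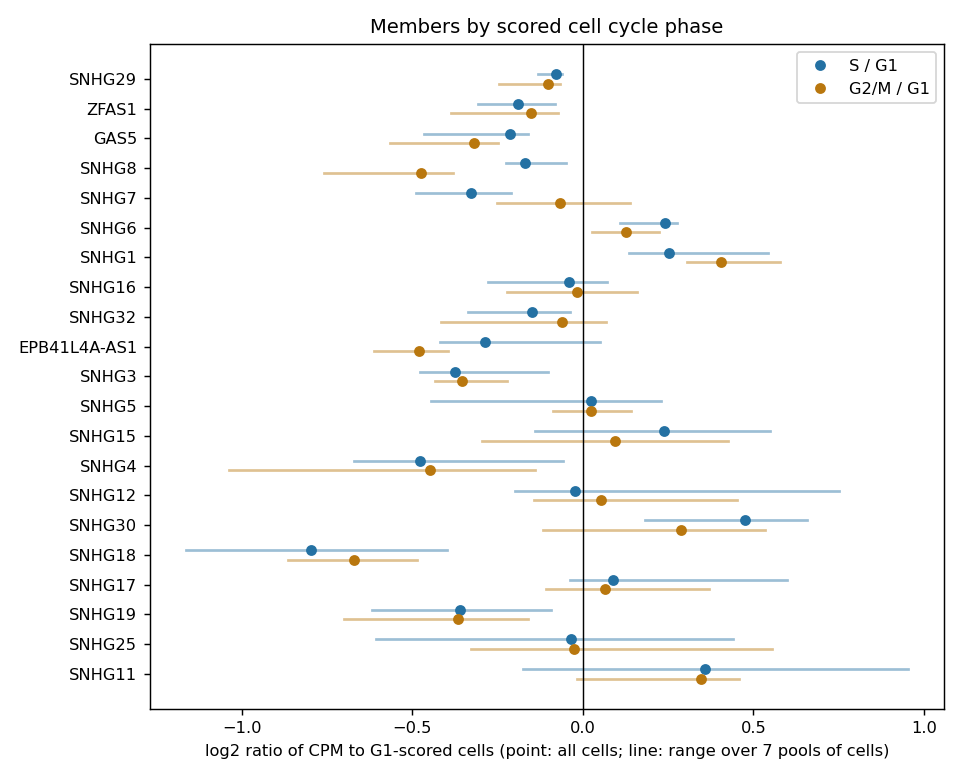
Log2 ratio of CPM in S-scored (blue) and G2/M-scored (orange) cells to that in G1-scored cells for the 21 members with at least 10 CPM; points are all 10142 cells and lines span 7 pools of cells. SNHG18 lies farthest to the left at -0.80 and -0.67, SNHG1 lies to the right at 0.25 and 0.40, and SNHG5 lies at 0.02 in both.

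Of the 4 members higher with ATF4 sgRNAs, SNHG5 thus differed little between phases, while ZFAS1, GAS5 and SNHG8 were highest in G1. The ATF4 difference was present in each phase when cells were pooled by target. SNHG5 was 80.6 CPM with ATF4 sgRNAs and 56.5 with controls in G1 (1.42-fold), 71.7 and 56.6 in S (1.27-fold), and 85.6 and 62.3 in G2/M (1.37-fold). ZFAS1 was 1.23-fold, 1.28-fold and 1.26-fold higher in G1, S and G2/M, and GAS5 1.19-fold, 1.16-fold and 1.23-fold higher. SNHG8 was 1.26-fold and 1.33-fold higher in G1 and S and 1.16-fold higher in G2/M. The exact Poisson intervals of the ATF4 and control cells cover counting error only and leave out the spread between sgRNAs. They were apart in every phase for ZFAS1 and GAS5. For SNHG8 in G2/M (200 to 232 and 170 to 203 CPM) and for SNHG5 in S (61.9 to 82.6 and 46.2 to 68.6 CPM) they overlapped. Whether the ATF4 difference varies between phases was not tested.

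**Figure D5:**
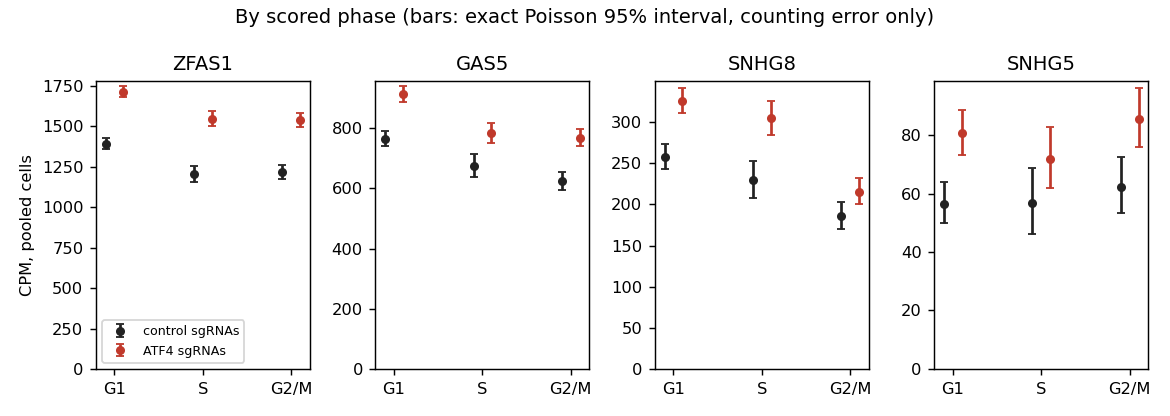
CPM of ZFAS1, GAS5, SNHG8 and SNHG5 in G1-, S- and G2/M-scored cells with ATF4 sgRNAs (red) and control sgRNAs (black); bars are exact Poisson 95% intervals, which cover counting error only. The ATF4 point lies above the control point in all 12 pairs, between 1.16-fold and 1.42-fold.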

How the data were processed

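The deposited values are raw counts of UMIs per gene or sgRNA and cell barcode, which per the file headers came from Cell Ranger 6.1.2, on build hg38 per the submitters' processing notes. The sources used here give no other settings of the authors' counting. From these counts, cells were kept with 1000 or more gene UMIs, 500 or more genes and a mitochondrial share of up to 20% (10142 of 10847 barcodes). No doublet caller was run. A cell was assigned to an sgRNA holding at least 5 UMIs and at least 80% of its sgRNA UMIs, which gave 5556 cells, 94 of them with at least 5 UMIs of sgRNAs of a further target.

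For each sgRNA with 20 or more cells (34 sgRNAs, 5530 cells), the counts of its cells were added up. They were compared with the quasi-likelihood test of edgeR 4.0.16 in R 4.3.3, with TMM scaling, edgeR's filter on low counts (11570 genes) and 1 fit for all groups. Benjamini-Hochberg adjustment of the p-values ran over all genes within a comparison, with a threshold of 0.05. The test was tested on simulated data. SE is that of the log2 fold change, and CPM are counts per 1000000 gene UMIs of an sgRNA or pool. Since CPM are shares, a change in the total RNA of a cell is not seen. Phases were scored with scanpy 1.11.5 from 43 S and 54 G2/M genes, and the cells of each phase were pooled. DESeq2 1.42.0 and other settings were run as alternatives. The sgRNA is the replicate, and its number, taken from its name, pairs nothing across targets.

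Every member that passed the filter was tested. Those called in a comparison with controls or among groups, and the 10 with the highest mean, are described by group. Other listed genes are named where called, with neighbours of the described members. The members and lists were chosen with earlier results of these data known. The sgRNA sequences were not analysed here.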

Additional observations from a re-analysis of the deposited data

Results flagged for a closer look

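In 126 groups of 4 or 6 sgRNAs (21 members with at least 10 CPM), 15 sgRNAs stood apart from the others of their group by Dixon's 95% critical value. Chance flags about 1 in 20 groups where the values have equal spread. Here the sgRNAs differ in depth, with CTNNB1 sums of 411333 to 6430143 UMIs. That rate need not hold, so no excess is read from the 15. CTNNB1 sgRNA 6, the one with the fewest cells of its target (32), accounts for 4 of them: it was the highest in SNHG16 (155.6 CPM, next 109.6) and SNHG25 (34.04, next 20.2), and the lowest in SNHG3 (48.6, next 60.1) and SNHG6 (153, next 180). CTNNB1 sgRNA 1 was the highest in SNHG1 (150 CPM, next 131) and CTNNB1 sgRNA 5 in SNHG7 (233, next 216).

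JUN sgRNA 5, with 56 cells, was the highest of its group in ZFAS1 (1570 CPM, next 1325) and in SNHG29 (1842, next 1608). That ZFAS1 value lies within the range of the ATF4 sgRNAs. JUN sgRNA 2 was the lowest in SNHG16 (93.6 CPM, next 108). CTCF sgRNA 3, with 48 cells, was the lowest in SNHG8 (149 CPM, next 212).

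Among ATF4 sgRNAs, sgRNA 1 was the highest in SNHG1 (172 CPM, next 147) and sgRNA 2 the highest in SNHG16 (134, next 112). PGAM1 sgRNA 1 was the lowest in SNHG16 (90.1 CPM, next 115) and PGAM1 sgRNA 2 the highest in SNHG18 (32.5, next 24.0). Control sgRNA 1 was the lowest in SNHG6, at 179 CPM with the next at 190.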

How the results depend on the processing

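The count of 4 members higher with ATF4 sgRNAs held with median-ratio size factors, with DESeq2, with no filter on low counts, with a stricter sgRNA rule, in G1-scored cells and in a fit of ATF4 and control sgRNAs alone. The looser sgRNA rule added SNHG17. With at most 10% mitochondrial UMIs it fell to 2, with SNHG8 at 0.34 and SNHG5 at 0.39 no longer called; the cause was not tested, and fewer cells entered. Leaving out 1 sgRNA at a time gave 4 to 5 members, with 0.32 to 0.41 for ZFAS1, 0.25 to 0.32 for GAS5, 0.27 to 0.42 for SNHG8 and 0.38 to 0.51 for SNHG5. Over all alternatives, the adjusted p of SNHG5 ranged from 8.2e-05 to 0.28. DESeq2 gave no adjusted p for 15 members in this comparison. With the looser sgRNA rule, the MYC count rose from 0 to 1 (SNHG29, -0.28). With at most 10% mitochondrial UMIs the MYC comparison could not be run, since too few cells were left. The counts for the other targets stayed at 0 in each alternative. Members with any difference among groups numbered 6, and 10 with the looser rule, 3 with at most 10% mitochondrial UMIs and 3 in G1-scored cells. The phase medians stayed below 0 in all 6 alternatives, from -0.15 to -0.060 for S and from -0.080 to -0.043 for G2/M. No paired analysis was possible because the sgRNA numbers of different targets name different sgRNAs.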
